A study of Sus scrofa with 10 samples.

Results

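Among the cells of the fetal pig medial entorhinal cortex (MEC), a small set was rich in both RELN, the gene of the secreted glycoprotein reelin, and CALB2, the gene of the calcium-binding protein calretinin. A cell was taken into the set if it held at least 20 unique molecular identifiers (UMIs, each a tagged RNA molecule) of RELN and at least 10 of CALB2. This rule found 54 of the 24940 fetal cells, in a series of 28229 cells in all. The cells were thus selected on their RELN and CALB2 values, so the levels of these 2 genes are given below as a description and were not tested. The 54 cells are called RELN/CALB2 cells.

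Cajal-Retzius cells are early-born neurons of the outermost layer of the developing cortex. They secrete reelin, which guides migrating neurons to their layers, and most of them are lost when cortical layering is complete. Many derive from the cortical hem, at the edge of the cortex near the hippocampus, and carry the transcription factor genes TP73 and LHX1, while reelin in the mature cortex also comes from other neurons, in particular certain inhibitory interneurons.

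The series held 8 fetal and 2 adult libraries of droplet single-cell RNA sequencing from unmodified pigs (Sus scrofa), the fetuses being crosses of Danish Landrace/Yorkshire sows and Duroc boars. Whole cells, freed with papain from fresh tissue, were captured at embryonic day 50 (library E50_1), day 60 (E60_1, E60_2 and E60_3), day 70 (E70_1, E70_2 and E70_3) and in the adult (Adult_1), and nuclei from frozen tissue, sorted on a DNA dye, at day 70 (E70_nc) and in the adult (Adult_nc). According to the labels a library pooled between 1 and 3 brains. Only day 60 and day 70 whole cells had replicate libraries.

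The total UMIs ranged from 3089188 in E70_nc to 55755512 in E50_1 among the fetal libraries, and the median UMIs per cell from 2616 to 9403. Of these libraries 2 stood apart in the dorsal forebrain genes of their neurons. The 11 genes of a dorsal forebrain list summed to 70.7 CPM (UMIs of a gene or list in every 1000000 UMIs of the summed cells) in the neuron-rich cells of E60_1 and to 43.9 CPM in those of E60_2, against 443 to 1034 CPM in the other fetal libraries. No RELN/CALB2 cell came from either. The neuron-rich cells of E50_1 other than RELN/CALB2 cells differed in other lists. A thalamus and pretectum list summed to 504 CPM in them, against 98.1 to 125 CPM in E60_3, E70_1, E70_2 and E70_3. A Purkinje cell list summed to 653 CPM, against 156 to 203 CPM. Any pair of libraries shared at most 57 cell barcodes, and no barcode of a RELN/CALB2 cell occurred in another library.

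The RELN/CALB2 cells were present at all 3 fetal stages, but were spread unevenly over the libraries. E60_3 held 33 of them, E70_3 held 8, E50_1 held 6, E70_2 held 4 and E70_1 held 3, and none was found in E60_1, E60_2 or E70_nc. A single library, E60_3, thus gave the largest part of the set.

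As a share of all cells, the RELN/CALB2 cells made up 1.22% of E60_3 (exact Clopper-Pearson 95% confidence interval 0.844% to 1.71%) and 0.109% of E50_1 (0.0400% to 0.237%). They made up 0.609% of E70_1 (0.126% to 1.77%), 0.648% of E70_2 (0.177% to 1.65%) and 0.256% of E70_3 (0.111% to 0.505%). The intervals cover counting error only. Where none was found, the number of cells allowed a share of up to 0.0367% in E60_1, 0.0862% in E60_2 and 0.350% in E70_nc, the share that 3 cells would make. Their exact 95% intervals reach 0.0451%, 0.106% and 0.429%. These limits are for cells that meet the rule in raw UMIs, not for the cell type. The median cell held 4251 UMIs in E60_1, 5477 in E60_2 and 2616 in E70_nc, while every RELN/CALB2 cell held at least 11044. Whether cells of this kind fell short of the rule for lack of depth was not tested.

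**Figure D1:**
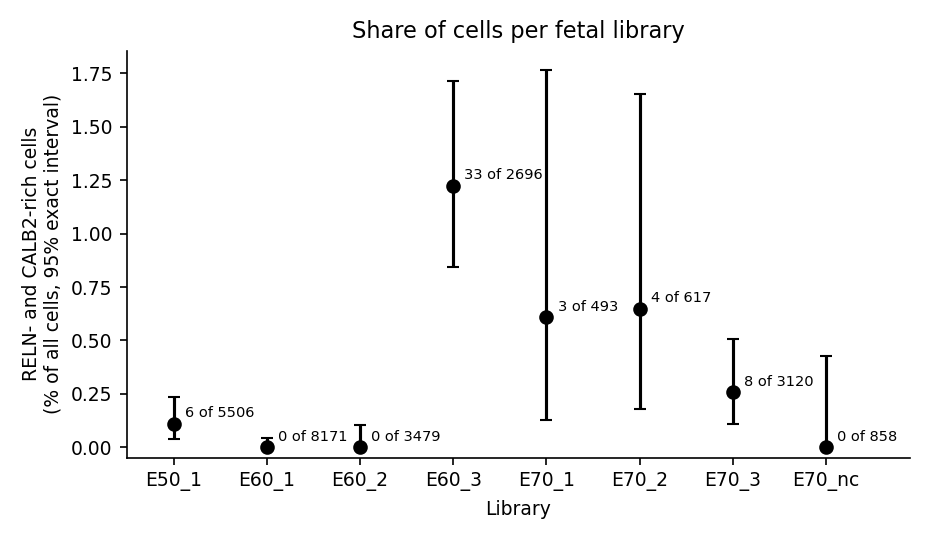
Share of RELN/CALB2 cells among all cells of each fetal library, in percent, with exact 95% intervals. The numbers beside the points are RELN/CALB2 cells of all cells. The share was highest in E60_3, at 1.22%, and the other E60 libraries held none.

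At E60 the share was 0.408% ± 0.707 and at E70 0.504% ± 0.216 (SD, n = 3 libraries each). The E60 libraries lay both below and above all 3 E70 libraries. The difference, 0.0964 percentage points, did not exceed the spread between libraries (exact permutation test, two-sided, p = 0.8, and the smallest p this design allows is 0.1). Same-numbered libraries differed in opposite directions, as E60_3 held more than E70_3 (1.22% against 0.256%). E60_1 held less than E70_1 (0 against 0.609%) and E60_2 less than E70_2 (0 against 0.648%). The direction turned when E60_1 or E60_2 was left out (-0.108 percentage points) and when the rule was set per 10000 UMIs of the cell (-0.0660).

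The levels that chose the cells lay far above the minimum in most of them. RELN ranged from 42 to 257 UMIs with a median of 115, and CALB2 from 11 to 147 with a median of 40. Only 3 cells were near the limits of the rule (RELN under 30 or CALB2 under 15 UMIs), and all of these 3 had UMIs of LHX1 and NDNF. Just outside it, 9 cells had enough RELN but 5 to 9 UMIs of CALB2, of which 7 had LHX1 and 7 had NDNF. On the other side, 5 cells of E50_1 had enough CALB2 but 10 to 19 UMIs of RELN, and 1 of these had LHX1 and 0 had NDNF.

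**Figure D2:**
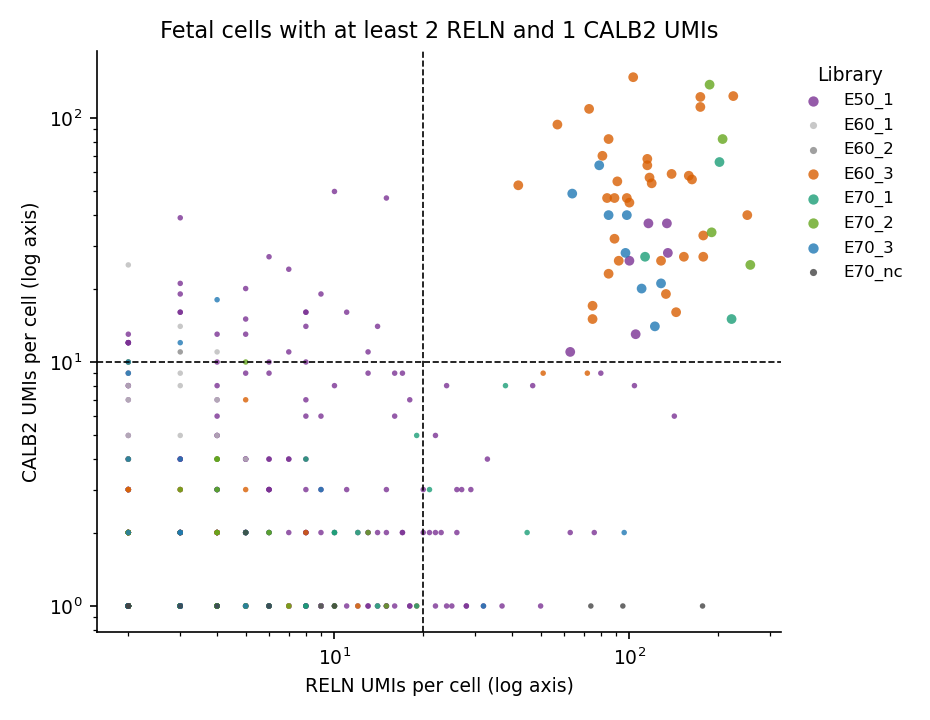
RELN UMIs (x axis) against CALB2 UMIs (y axis) in fetal cells with at least 2 RELN and 1 CALB2 UMIs, both on log axes, coloured by library. Dashed lines mark 20 RELN and 10 CALB2 UMIs, and large points are the 54 RELN/CALB2 cells, which lie apart from most other cells and reach 257 RELN and 147 CALB2 UMIs.

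A rule in raw UMIs favours cells with much RNA, and the RELN/CALB2 cells were deep. They held 11044 to 81803 UMIs with a median of 31607, and a median of 7161.5 genes. In each library their median lay at or above the 95.9th percentile of UMIs per cell. Per 10000 UMIs of the cell, RELN ranged from 15.5 to 112 (median 41.5) and CALB2 from 3.23 to 38.1 (median 16.1), and the same limits set per 10000 UMIs kept 36 cells, of which 34 were RELN/CALB2 cells. The deeper sampling of these cells also raises the chance to see at least 1 UMI of any gene, so shares of cells with a gene are compared below after each cell was thinned to 10000 UMIs.

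RELN was at 5895 CPM in the summed UMIs of the RELN/CALB2 cells of E50_1, 3627 in E60_3, 4265 in E70_1, 4548 in E70_2 and 3609 in E70_3. In the other neuron-rich cells of these 5 libraries, defined by at least 20 UMIs of 12 pan-neuronal genes per 10000, it was at 85.8 to 245 CPM. CALB2 was at 1372, 1702, 858, 1503 and 1272 CPM in the RELN/CALB2 cells, and at 24.6 to 103 CPM in the other neuron-rich cells. These differences follow from the rule. On Sscrofa11.1, RELN lies at chr9:103460855-103963728 and CALB2 at chr6:14392220-14420663.

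The first question was whether these cells carried the other genes of Cajal-Retzius cells, none of which entered the rule. LHX1, a LIM homeobox transcription factor gene at chr12:38450708-38457583, was found in 54 of the 54 cells, with up to 28 UMIs. It was at 307 CPM in E50_1, 400 in E60_3, 151 in E70_1, 238 in E70_2 and 378 in E70_3, against 29.8, 1.64, 1.90, 0.919 and 0.352 CPM in the other neuron-rich cells of the same libraries. The levels did not overlap.

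TP73, the p53 family gene that marks Cajal-Retzius cells of the hem (chr6:65169770-65228997), was detected in 29 of the 54 cells, with at most 4 UMIs per cell. Its level was 45.1 CPM in E50_1, 20.03 in E60_3, 15.9 in E70_1, 32.4 in E70_2 and 9.22 in E70_3, and 1.88 to 7.30 CPM in the other neuron-rich cells. All 29 cells with TP73 also had LHX1 and NDNF. TP73 was found in 5 of 6 cells of E50_1, 17 of 33 of E60_3, 2 of 3 of E70_1, 3 of 4 of E70_2 and 2 of 8 of E70_3. After thinning, TP73 was seen in 25.9% of the RELN/CALB2 cells (95% interval 14.96% to 39.7%) and in 2.78% of microglia-like cells (1.03% to 5.95%), which should lack it and give the background of free RNA. LHX1 was thus found in every cell, and TP73 above background in part of them. Both genes are on lists chosen with earlier results of these data known, so they do not test the label of Cajal-Retzius-like cells independently. After thinning, LHX1 was seen in 96.3% of the RELN/CALB2 cells and 9.12% of the other neuron-rich cells. In the RELN-only and CALB2-only cells defined below it was seen in 24.1% and 32.6%.

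Tests of further genes needed libraries with enough cells. The minimum fixed for them was 10 cells, which only E60_3 reached, so this comparison had no replicates and is given as values. In E60_3 the largest ratios of CPM to the other neuron-rich cells were those of LHX1 (244-fold) and NDNF (166-fold). INKA1, RIN1, S100A6, SNCG and GMPR followed at 106-, 101-, 63.4-, 62.6- and 58.7-fold, and BARHL2, with 22 UMIs against none in the other neuron-rich cells, was at least 106-fold higher (against a floor of 3 UMIs). The lowest ratios were those of MEIS2 (0.0565) and NEUROD2 (0.0694). TMIE was the other gene at the top, but it had only 14 UMIs in the 33 cells and 1 in the other neuron-rich cells.

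After the numbers of cells had been seen, the comparison was fitted with a minimum of 3 cells, which admitted 5 libraries. UMIs were summed per library and class and tested with the quasi-likelihood test of edgeR with library as a block, and p-values were adjusted by the Benjamini-Hochberg method over all 14507 genes tested, with RELN and CALB2 left out. Of all genes tested, 1315 (9.06%) were higher and 1742 (12.0%) lower in RELN/CALB2 cells at an adjusted p below 0.05, and the median log2 fold change of all genes was -0.18. With the size factors of DESeq2 in the same test, 1703 were higher and 1640 lower, and the Wald test of DESeq2 called 1394 higher and 1103 lower, so the balance of directions depended on the scaling and the test. When the other neurons were restricted to cells about as deep as the RELN/CALB2 cells, 499 genes were higher and 512 lower in 4 libraries. Without E60_3, 715 were higher and 994 lower.

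The genes of the Cajal-Retzius list were mostly higher in RELN/CALB2 cells. Of its 18 genes 15 could be tested, 13 were higher, 1 was lower and 1 did not pass, and their median log2 fold change was 2.34. Between 10 and 13 genes of the list were higher under every alternative fit, and 12 when E60_3 was left out. The list does not hold RELN or CALB2, but it was written with earlier results of these data known.

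**Figure D3:**
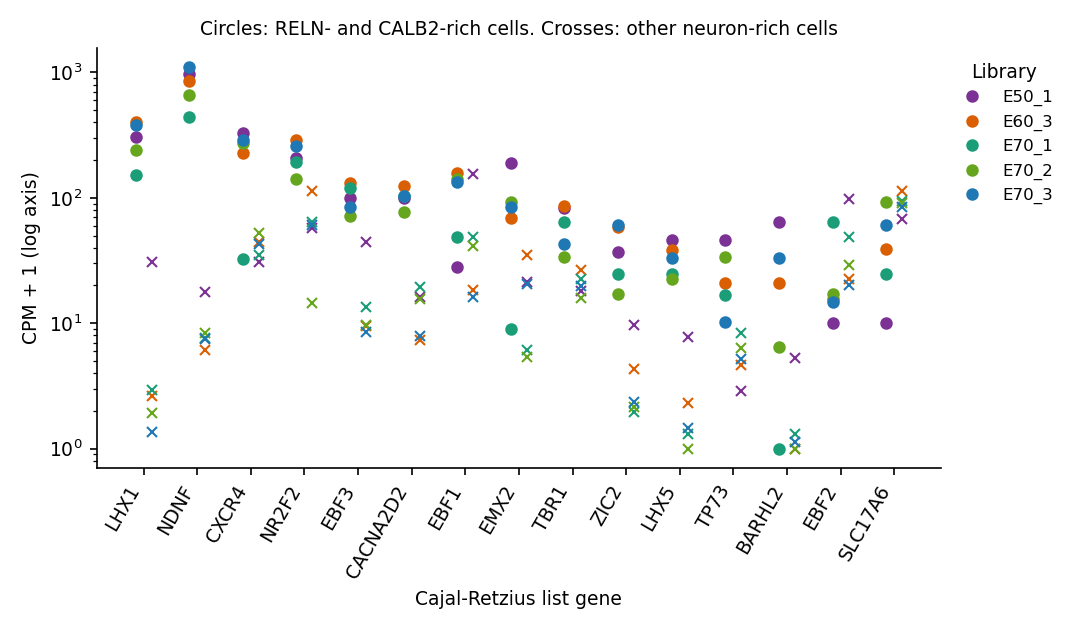
Levels of the 15 tested genes of the Cajal-Retzius list, as CPM + 1 on a log axis, in RELN/CALB2 cells (circles) and other neuron-rich cells (crosses) of 5 libraries, coloured by library. LHX1 and NDNF are higher in the circles of every library, while EBF2 and SLC17A6 overlap.

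NDNF encodes a secreted neurotrophic factor that is found in Cajal-Retzius cells and in layer 1 interneurons. It was present in 54 of 54 cells with a median of 25.5 UMIs, at 966 CPM in E50_1, 847 in E60_3, 437 in E70_1, 654 in E70_2 and 1106 in E70_3. In the other neuron-rich cells it was at 5.11 to 16.6 CPM. The log2 fold change was 6.50 ± 0.28 (SE, 5 libraries, edgeR, adjusted p = 4.8e-36), and that of LHX1 6.82 ± 0.42 (adjusted p = 3.5e-25). In thinned cells NDNF was seen in 100% of the RELN/CALB2 cells, 6.46% of the other neuron-rich cells and 1.39% of the microglia-like cells.

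Transcription factors of the list rose to different degrees. LHX5, a second LIM homeobox gene, had a log2 fold change of 4.60 ± 0.50, BARHL2 5.54 ± 0.61, ZIC2 3.89 ± 0.45 and EBF3, which supports neuronal differentiation, 2.91 ± 0.30 (SE, edgeR, all at adjusted p below 0.05). TP73 rose by 2.34 ± 0.45 (edgeR, adjusted p = 2.8e-05), EMX2 by 2.18 ± 0.30, NR2F2 by 1.84 ± 0.24 and TBR1 by 1.46 ± 0.29. NR2F2 was detected in 54 cells, EBF3 in 49, TBR1 in 48, EMX2 in 47, ZIC2 in 38, LHX5 in 35 and BARHL2 in 22. EMX2 was an exception in 1 library, with 7.94 CPM in E70_1 against 68.3 to 190 CPM in the others, and BARHL2 was not detected in the 3 cells of E70_1.

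The EBF genes did not move together. EBF1 was at 156 CPM in E60_3, 141 in E70_2 and 134 in E70_3, but at 27.1 CPM in E50_1, where the other neuron-rich cells had 155 CPM. Its log2 fold change of 1.51 ± 0.34 passed the test (edgeR, adjusted p = 0.00041), but not without E60_3 (log2 fold change 0.89, adjusted p = 0.082) or without the library block (0.85, adjusted p = 0.58). With the Wald test of DESeq2 (1.32, adjusted p = 0.33) and in cells of like depth (1.47, adjusted p = 0.22) the fold was closer to that value, but did not pass. EBF2 was at 9.03 to 63.5 CPM and did not pass (log2 fold change -0.83 ± 0.34, adjusted p = 0.074). EBF4 was lower (-0.87 ± 0.30, adjusted p = 0.025).

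CXCR4, the receptor of the chemokine CXCL12 that holds Cajal-Retzius cells under the meninges, was detected in 52 cells. It was at 325 CPM in E50_1, 226 in E60_3, 270 in E70_2 and 286 in E70_3, but at 31.8 CPM in E70_1, below the 34.3 CPM of the other neuron-rich cells there. The log2 fold change was 2.27 ± 0.26 (edgeR, adjusted p = 6.8e-12). Of the other genes of this axis, CXCL12 did not pass (0.80 ± 0.58, adjusted p = 0.35), and the scavenger receptor gene ACKR3 fell (-2.67 ± 0.64). CACNA2D2, a calcium channel subunit gene, was found in 53 cells and rose by 3.12 ± 0.29 (edgeR, adjusted p = 2.4e-15).

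No UMI of NHLH1 or NHLH2 was found in the RELN/CALB2 cells, but these genes were also at 0 to 0.0264 CPM in the other neuron-rich cells, so no comparison could be made for them.

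Beyond the list, the genes with the largest rise among those that rose in 5 of 5 libraries and were found in at least 25% of the RELN/CALB2 cells were LHX1, NDNF, LGALS1, SNCG, GMPR, INKA1, S100A6, SCN4B, LHX5, CHRNA4, GDF10 and NXPH4. LGALS1, which encodes the sugar-binding protein galectin-1, was at 4712 CPM in E50_1, 4996 in E60_3, 2343 in E70_1, 4359 in E70_2 and 4738 in E70_3, and at 18.4 to 153 CPM in the other neuron-rich cells (log2 fold change 6.21 ± 0.27, edgeR, adjusted p = 4.8e-36). It was found in 53 of the 54 cells. After thinning, LGALS1 was seen in 98.1% of the RELN/CALB2 cells and 30.2% of the other neuron-rich cells. It was not particular to the RELN/CALB2 cells, as 54.6% of the microglia-like cells also had it. S100A6, a calcium-binding protein gene, was at 183 to 604 CPM against 4.76 to 27.5, and SNCG, which encodes gamma-synuclein, at 328 to 728 CPM against 3.81 to 89.6.

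GMPR encodes an enzyme of purine metabolism, guanosine monophosphate reductase. It was at 298, 367, 159, 368 and 502 CPM in the 5 libraries, against 5.75 to 7.40 CPM in the other neuron-rich cells. GMPR was not particular to these cells either, since microglia-like cells had 61.2 to 161 CPM. CHRNA4, a nicotinic acetylcholine receptor subunit gene, was at 31.8 to 97.3 CPM against 1.59 to 6.58, and GDF10, a secreted factor of the TGF-beta family, at 15.5 to 90.3 CPM against 0 to 4.04.

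All 12 of these genes kept their direction and their call in every alternative fit but 1, in which the library block was dropped and 11 of 12 kept it. The same held for the 12 genes with the largest fall. They included NEUROD2, POU3F2, PCDH8, NEUROD6, MEIS2, EPHA5, IGFBPL1, MPPED2, PID1, ELMOD1 and ZBTB18, of which NEUROD2, NEUROD6 and ZBTB18 encode transcription factors of cortical excitatory neurons.

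**Figure D4:**
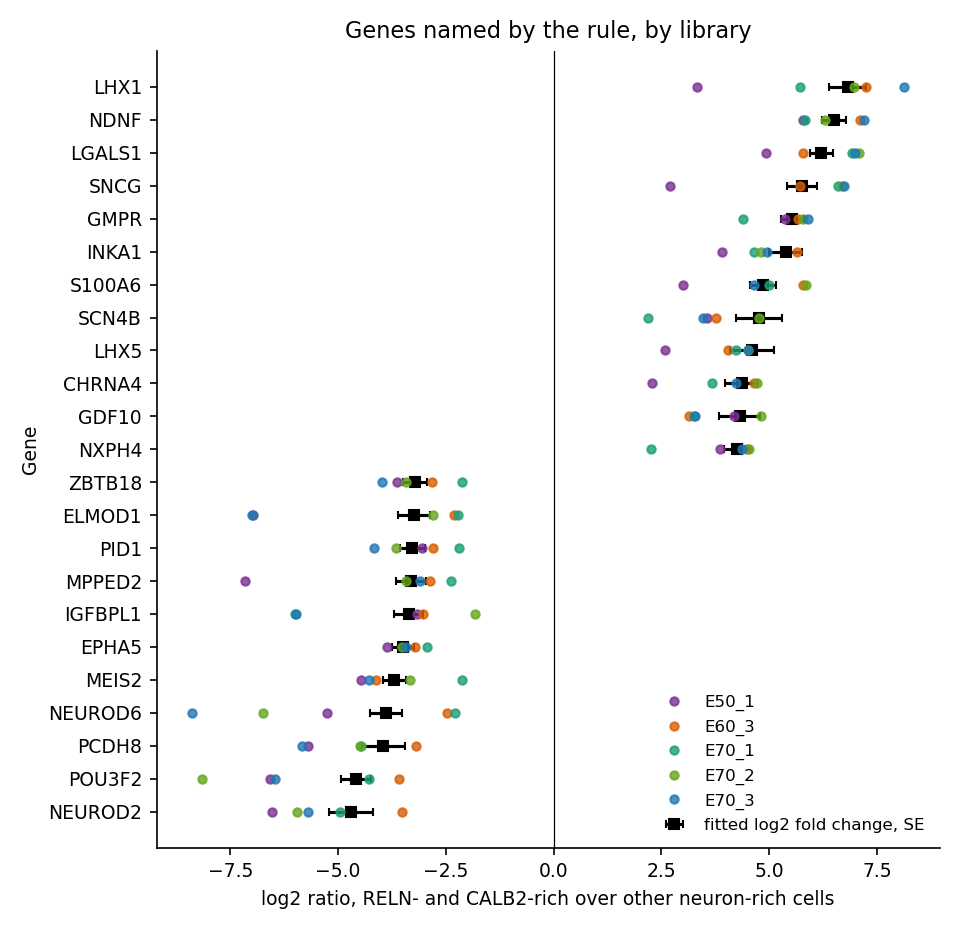
Log2 ratio of RELN/CALB2 cells to other neuron-rich cells in each of 5 libraries (coloured points) and as fitted (black squares with SE) for the 12 genes with the largest rise and 11 of those with the largest fall. All points of a gene lie on the same side of 0, and E50_1 has the smallest ratio of LHX1, where the other neuron-rich cells reached 29.8 CPM.

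The RELN/CALB2 cells were low in most dorsal forebrain genes. Of the 11 genes of that list 10 were tested, 7 were lower and 2, EMX2 and TBR1, were higher. NEUROD6 was at 0 to 24.6 CPM in the RELN/CALB2 cells and at 42.8 to 383 CPM in the other neuron-rich cells (log2 fold change -3.88 ± 0.37, edgeR, adjusted p = 8.5e-15). NEUROD2 was found in 2 of the 54 cells (-4.70 ± 0.51) and POU3F2 in 7 of the 54 (-4.58 ± 0.35). EMX1 and LHX2 were present, at 15.9 to 37.9 and 21.6 to 55.6 CPM. EMX1 did not pass the test (0.28 ± 0.34, adjusted p = 0.62) and LHX2 was lower (-1.01 ± 0.29). After thinning, however, LHX2 was seen in 37.0% of the RELN/CALB2 cells and 35.4% of the other neuron-rich cells.

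Genes of the inhibitory transmitter GABA were mostly lower, and GAD1 was rare. Of the 5 genes of GABA and glycine synthesis and transport 3 were lower and none higher. GAD1, the gene of a GABA-synthesizing enzyme, was found in 3 cells and was at 0 CPM in E50_1, E70_1, E70_2 and E70_3 and at 11.8 CPM in E60_3, where 11 of its UMIs came from a single cell. In the other neuron-rich cells it was at 25.1 to 48.7 CPM (log2 fold change -2.39 ± 0.45, edgeR, adjusted p = 1.5e-05). GAD2 was found in 16 cells, with 4 UMIs at most, and DLX1, a factor of forebrain interneurons, in 6. Of 10 interneuron factor genes 4 of the 7 tested were lower (DLX1, DLX5 and ADARB2 among them) and none was higher.

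Transporters that load glutamate into vesicles were low rather than absent. SLC17A6 (VGLUT2) was found in 33 of the 54 cells, at 9.03 CPM in E50_1, 38.2 in E60_3, 23.8 in E70_1, 91.9 in E70_2 and 59.9 in E70_3, against 66.2 to 112 CPM in the other neuron-rich cells. Its log2 fold change of -1.17 ± 0.28 passed the test (edgeR, adjusted p = 0.00099), but not in cells of like depth (-0.86, adjusted p = 0.16), without E60_3 (-0.97, adjusted p = 0.052), with the rule per 10000 UMIs (-1.13, adjusted p = 0.061) or without the block (-0.98, adjusted p = 0.21). After thinning, SLC17A6 was seen in 38.9% of the RELN/CALB2 cells and 36.7% of the other neuron-rich cells. SLC17A7 was found in 1 cell (-3.62 ± 1.06, adjusted p = 0.0065) and SLC17A8 in 6.

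**Figure D5:**
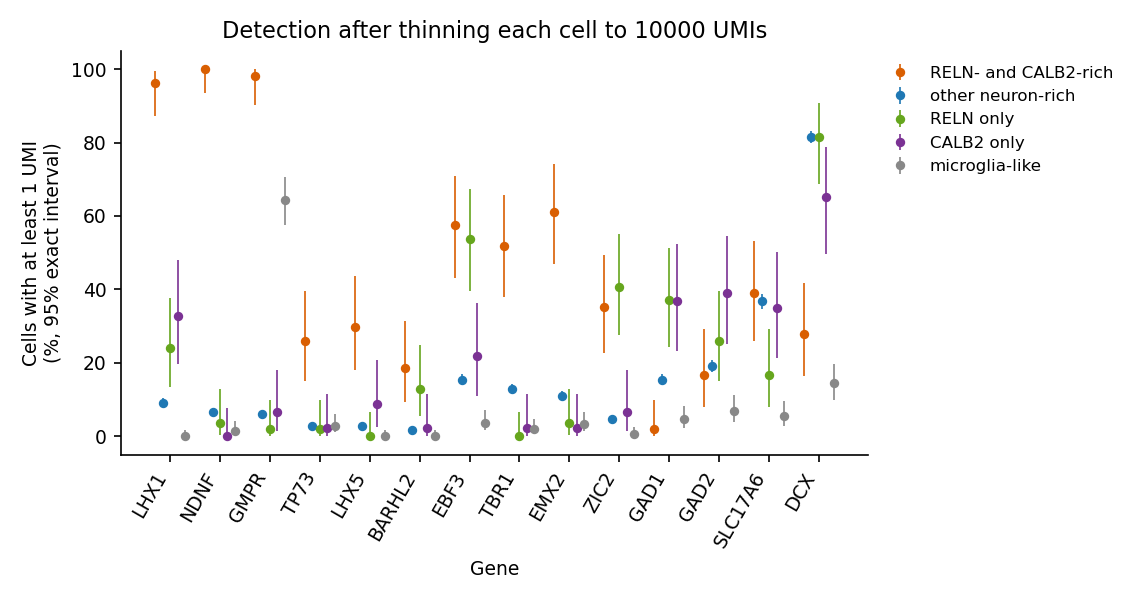
Share of cells with at least 1 UMI of a gene after each cell was thinned to 10000 UMIs, in percent with exact 95% intervals, for 5 classes of cells from the 5 libraries that hold RELN/CALB2 cells. NDNF reaches 100% of the RELN/CALB2 cells and at most 6.46% of the other classes, and DCX, at 27.8%, is lower than in the other classes of neurons.

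The pan-neuronal genes, which the RELN/CALB2 cells were not chosen on, were all found. SNAP25, a gene of the vesicle fusion machinery, was at 1938 to 3088 CPM against 157 to 474 CPM (log2 fold change 2.98 ± 0.22, edgeR, adjusted p = 2.5e-21). INA, an intermediate filament gene, was at 713 CPM in E50_1 and 103 to 267 CPM in the other libraries, against 180 and 2.30 to 20.6 CPM (3.97 ± 0.31). STMN2 and GAP43, genes of growing axons, also rose (1.02 ± 0.21 and 1.32 ± 0.22). DCX, which encodes doublecortin of migrating young neurons, fell from 212 to 314 CPM in the other neuron-rich cells to 18.4 to 87.4 CPM (-2.41 ± 0.27, adjusted p = 8.9e-12). In all, 4 of the 12 genes were higher and 5 lower (DCX, SYT1, ELAVL4, NSG2 and TAGLN3). The other neuron-rich cells were themselves chosen on the sum of these genes.

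The adaptor DAB1 was lower in the cells rich in reelin, while most of the pathway list did not pass the test. Reelin binds the receptors VLDLR and LRP8 (ApoER2) on the target cell, which pass the signal to the adaptor DAB1 through the kinases FYN and SRC. DAB1 was at 18.1 CPM in E50_1, 62.8 in E60_3, 95.3 in E70_1, 130 in E70_2 and 46.1 in E70_3, against 404, 237, 184, 332 and 521 CPM in the other neuron-rich cells, and so was lower in 5 of 5 libraries (log2 fold change -2.31 ± 0.28, edgeR, adjusted p = 6.6e-11). LRP8 was lower as well (-1.23 ± 0.24, adjusted p = 3.2e-05), but not in cells of like depth (-0.89, adjusted p = 0.059) or without the block (-1.07, adjusted p = 0.14), and FYN by little (-0.65 ± 0.22, adjusted p = 0.023). VLDLR was found in 9 cells and did not pass (-0.44 ± 0.50, adjusted p = 0.60). After thinning, DAB1 was seen in 35.2% of the RELN/CALB2 cells and 83.5% of the other neuron-rich cells. LRP8 (63.0% against 57.2%) and FYN (90.7% against 85.9%) were not seen in fewer RELN/CALB2 cells.

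Of the 19 genes of the reelin pathway list 18 were tested, of which 3 were higher (CDK5, APBB1 and RBX1), 3 lower and 12 did not pass. The median log2 fold change of the list was -0.12, close to the -0.18 of all genes. CDK5, a kinase that acts on neuronal migration beside reelin, was at 415, 248, 135, 211 and 355 CPM against 39.4 to 150 CPM (1.56 ± 0.23, adjusted p = 3e-08), but did not pass without the library block, at a like fold (1.62, adjusted p = 0.051). DAB1 was also found in microglia-like cells, at 117 to 455 CPM, and the part of free RNA in this result was not tested.

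Among receptor genes of glutamate and GABA more were lower than higher. Of 19 glutamate receptor genes 9 were lower, 2 higher and 8 did not pass, with a median log2 fold change of -0.63. GRIA2 was at 72.2 to 195 CPM against 202 to 550 CPM (-1.64 ± 0.24, edgeR, adjusted p = 6.3e-08), and GRIA4, another AMPA receptor subunit gene, was higher (0.70 ± 0.23, adjusted p = 0.018). After thinning, GRIA2 was seen in 66.7% of the RELN/CALB2 cells and 88.6% of the other neuron-rich cells. GRIA1 and GRIN2B, also called lower, were seen in 68.5% and 77.8% against 69.2% and 77.2%. In E70_1 and E70_2 the list summed to 1705 and 2044 CPM in microglia-like cells, against 2637 and 2174 CPM in RELN/CALB2 cells. Microglia-like cells of E50_1, E60_3 and E70_3 had 197 to 396 CPM. Of 14 genes of chloride transport and of GABA and glycine receptors 6 were lower, and GABRA4 was the only one higher (1.54 ± 0.26, adjusted p = 1.5e-06). In E70_1 and E70_2 these genes summed to 759 and 957 CPM in microglia-like cells, against 1342 and 1303 CPM in RELN/CALB2 cells. The part of free RNA in the results of both lists was not tested. The chloride transporter gene SLC12A2, which keeps young neurons excitable by GABA, did not pass (-0.28 ± 0.33), and SLC12A5, its counterpart in mature neurons, was found in 7 cells.

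Among other calcium-binding protein genes, HPCA rose (2.68 ± 0.31, edgeR, adjusted p = 1e-11), as did PCP4 (2.21 ± 0.38) and CALM2. Of the 11 tested genes of this list 4 were higher, 2 lower (NCALD, -0.72 ± 0.25, and NECAB1, -1.68 ± 0.31) and 5 did not pass. PCP4 was uneven, with 982 CPM in E70_3, 374 in E60_3, 324 in E70_2, 117 in E50_1 and 23.8 in E70_1. CALB1, the gene of calbindin, was found in 11 of the 54 cells and with 2 UMIs at most, and PVALB in 2 cells. Calbindin marks pyramidal neurons of the entorhinal cortex in rodents and humans, but the paper proposes that this may not hold in the pig. Of the genes of cell death, BAX rose (1.22 ± 0.27, adjusted p = 0.00022) and 6 of 9 tested did not pass.

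Lists of other regions had between 4 and 9 genes tested each, and between 1 and 4 of them were called. Of the thalamus and pretectum list 0 of 5 tested genes were higher and 1 (TCF7L2) lower by edgeR, of the midbrain list 0 of 5 higher and 1 (MEIS2) lower, and of the retina and pineal list 0 of 4 higher and 1 (SFRP2) lower. Of 8 cerebellar granule cell genes ZIC1 and ZIC2 were higher and NEUROD1 and ETV1 lower, and of 9 Purkinje cell genes LHX1, LHX5 and PCP4 were higher and ITPR1 lower. Of 5 unipolar brush cell genes LMX1A was higher and EOMES lower, and of 7 LIM homeobox genes LHX1, LHX5 and LMX1A were higher and LHX2 lower. LMX1A, a factor of the hem and of the roof plate, was found in 43 cells and rose by 1.70 ± 0.30 (edgeR, adjusted p = 4.3e-06). It was at 72.2, 63.7 and 73.7 CPM in E50_1, E60_3 and E70_3, against 6.001 to 9.99 CPM in the other neuron-rich cells, but at 167 and 157 CPM in E70_1 and E70_2, where other neuron-rich cells had 118 and 114 CPM and microglia-like cells 131 and 135 CPM. In these last libraries LMX1A was thus not far from its background.

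Markers of cells that could be mixed in were compared next. The 8 microglia genes summed to 36.1 to 119 CPM in RELN/CALB2 cells and 16.3 to 84.7 CPM in other neuron-rich cells, and 7 of 8 did not pass. The sum was higher in the RELN/CALB2 cells in E70_1 (119 against 64.7 CPM), E70_2 (54.1 against 51.7) and E70_3 (50.7 against 16.3), and lower in the other libraries. The exception, AIF1, was at 23.0 to 27.1 CPM against 0.764 to 11.4 CPM (2.02 ± 0.47, edgeR, adjusted p = 0.00045), and at 579 to 1693 CPM in microglia-like cells. Oligodendroglial genes summed to 26.4 to 87.4 CPM and vascular genes to 0 to 143 CPM, and edgeR called 0 of the 5 genes tested in each (0 at an unadjusted p below 0.05). Those of radial glia and astrocytes summed to 106 to 334 CPM in E50_1, E60_3, E70_1 and E70_2, below the 622 to 832 CPM of other neuron-rich cells, with 5 of 8 genes lower. In E70_3 they summed to 705 against 542 CPM, and the cell with 83 UMIs of FABP7 described below is from that library. The part of mixed-in RNA in the results was not tested. HBB, the globin gene of red blood cells, was present in 53 of the 54 cells at 115 to 614 CPM, and at 305 to 2760 CPM in the other neuron-rich cells. Of the 3 tested genes of intermediate progenitors 3 were lower, of the 5 of cell division 3 and of the 3 of meningeal fibroblasts 1 (COL1A2). Of the 4 tested genes of the response to dissociation, DNAJB1 was lower.

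Doublets, droplets with more than 1 cell, were looked for with Scrublet, which called 0 of the 54 cells and between 0.192% and 2.525% of all cells in the libraries that hold them. The caller made so few calls in E60_3 (0.334%) and E70_3 that this is a weak check for cells of this depth. After the values had been seen, 6 of the 54 cells, 5 of them from E60_3, were found to hold at least 8 UMIs of a gene of another class. One had 68150 UMIs with 11 of GAD1 and 17 of ERBB4. The deepest, with 81803 UMIs, held 29 of POU3F2, 46 of MEIS2 and 9 of C1QB, and a cell of E70_3 held 83 of FABP7 and 15 of AQP4. All 6 had UMIs of both LHX1 and NDNF, and whether they held a second cell was not tested.

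The second question was how the RELN/CALB2 cells differed from cells with only 1 of their defining genes. RELN-only cells had at least 20 UMIs of RELN and at most 1 of CALB2. There were 121 of them in the fetal libraries, 96 in E50_1 and 3 and 4 in E60_3 and E70_3, which were the libraries that could be fitted. Of 4627 genes tested, 61 (1.32%) were higher and 47 (1.02%) lower in RELN/CALB2 cells. Only 5 calls were left without E60_3, so most of them rest on that library, with 3 RELN-only cells.

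Of the 10 Cajal-Retzius genes that could be tested against RELN-only cells, LHX1, NDNF, TBR1, CACNA2D2 and EMX2 were higher and 5 did not pass. NDNF was at 5.78 CPM in the RELN-only cells of E50_1 but at 161 and 247 CPM in those of E60_3 and E70_3 (log2 fold change 3.95 ± 0.90, edgeR, adjusted p = 0.048). LHX1 was at 34.7, 0 and 0 CPM in them (3.88 ± 0.64, adjusted p = 0.012). EBF3, at 141, 0 and 0 CPM, and ZIC2, at 77.1, 0 and 0 CPM, were present in RELN-only cells of E50_1 alone among these libraries, and CXCR4, at 57.8, 184 and 225 CPM, did not pass (1.22 ± 0.51, adjusted p = 0.26).

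The RELN-only class was not of 1 kind. In E50_1, which gave 96 of its cells, the GABA list summed to 111 CPM, below the 170 CPM of other neuron-rich cells, and the cerebellar granule cell list to 1457 CPM, while in E60_3 and E70_3 the GABA list summed to 1377 and 1258 CPM and the granule cell list to 115 and 112 CPM. High levels of GABA genes in the class thus rest on the 3 and 4 cells of these last libraries. GAD1 was at 73.2 CPM in the RELN-only cells of E50_1, 367 in E60_3 and 539 in E70_3, against 0, 11.8 and 0 CPM in the RELN/CALB2 cells (log2 fold change -5.62 ± 0.71, edgeR, adjusted p = 0.0024). ERBB4, a neuregulin receptor gene of interneurons, was at 1798 to 2203 CPM in RELN-only cells and 27.1 to 127 CPM in RELN/CALB2 cells (-4.83 ± 0.48, adjusted p = 0.00082). KIT, a growth factor receptor gene, was at 132 to 1056 CPM against 0 to 15.5 CPM (-6.37 ± 0.64, adjusted p = 0.00082). GAD2, ADARB2, GRIK1 and CXCL12 were lower too, and DAB1 was lower by 3.56 ± 0.45. After thinning, however, DAB1 was seen in 35.2% of both classes, and GRIK1 in 27.8% of RELN/CALB2 and 20.4% of RELN-only cells. GAD2 (16.7% against 25.9%), ADARB2 (20.4% against 35.2%) and CXCL12 (3.70% against 25.9%) were seen in fewer RELN/CALB2 cells. These shares pool the cells of all libraries, unlike the fit.

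Several genes at the top against all neurons were also at the top here. LGALS1 (6.67 ± 0.51, edgeR, adjusted p = 0.00022), GMPR (6.54 ± 0.74), INKA1, S100A6 and SNCG were higher, as was RSPO3, which encodes an enhancer of Wnt signalling. RSPO3 was at 1092 CPM in E50_1, 295 in E60_3 and 212 in E70_3, against 0.963, 45.9 and 0 CPM (7.82 ± 1.21, adjusted p = 0.0082), and its level in RELN/CALB2 cells was highest in E50_1 of all 5 libraries.

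CALB2-only cells had at least 10 UMIs of CALB2 and at most 1 of RELN. There were 103, of which 72 came from E50_1 and 6 from E70_3, the libraries that could be fitted. Of 4770 genes tested, 126 (2.64%) were higher and 158 (3.31%) lower in RELN/CALB2 cells. Dropping the library block left 0 calls by edgeR, with 402 genes at an unadjusted p below 0.05, and DESeq2 with the block called 82, so these calls rest on the pairing of 2 libraries.

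Of the 8 Cajal-Retzius genes tested against CALB2-only cells, LHX1, CXCR4, NDNF, CACNA2D2, EMX2 and NR2F2 were higher and 2 did not pass. NDNF was at 4.71 and 0 CPM in the CALB2-only cells of E50_1 and E70_3 (log2 fold change 7.94 ± 0.63, edgeR, adjusted p = 2.3e-09), and NR2F2 at 5.65 and 27.9 CPM (4.15 ± 0.57, adjusted p = 2e-05). GMPR (4.83 ± 0.51) and LGALS1 (4.66 ± 1.00) were higher, though LGALS1 reached 995 CPM in the CALB2-only cells of E50_1. ARPP21, a gene of forebrain neurons, was lower (-6.47 ± 0.72), as was the neuropeptide gene CCK (-5.58 ± 0.87). DAB1 was lower here too (-3.48 ± 0.50, adjusted p = 4.5e-05).

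The third question was the stage. E60_3 was the only E60 library with RELN/CALB2 cells, so its 33 cells were set beside the 15 cells of E70 as values, with no test. Genes above all 3 E70 libraries in E60_3 had few UMIs, with LSM14B at their head, on 34 UMIs against 1. NR4A2, an early response and neuronal transcription factor gene, was at 49.2 CPM in E60_3 and 0 to 7.94 CPM at E70. Genes below all E70 libraries were led by OVOL1, at 0.910 CPM in E60_3 against 151, 173 and 4.61 CPM in E70_1, E70_2 and E70_3, but the other neuron-rich cells of E70_1 and E70_2 held 197 and 208 CPM. PROM1 was likewise at 214 and 308 CPM in RELN/CALB2 cells of E70_1 and E70_2 and at 246 and 291 CPM in the other neuron-rich cells. Over the 12 genes named as lower in E60_3, the ratio of E60_3 to E70 in the other neuron-rich cells ranged from 0.0467 (OVOL1) to 1.37 (EDNRB), so part of them differed between the libraries in other neurons too. Over the 12 genes named as higher it was 1.02 to 1.92 there. With 1 library at E60, stage and library cannot be told apart.

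Across the 5 libraries, E50_1 had the highest levels of RELN, TP73, EMX2, BARHL2, RSPO3, INA and NXPH4 in RELN/CALB2 cells, from 6 cells. NXPH4, a neurexin ligand gene, was at 542 CPM in E50_1 and 15.9 to 108 CPM in the others. FOS, an early response gene, was at 583 CPM in E60_3 and 908 CPM in E70_3 but at 16.2 to 47.7 CPM in the others, and at 581, 348 and 43.2 to 143 CPM in the other neuron-rich cells of these libraries. Its difference between the classes did not pass (-0.40 ± 0.29, edgeR, adjusted p = 0.37).

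A search with LHX1 and NDNF in place of RELN and CALB2, chosen after the data had been seen, found nearly the same cells at E60 and E70 but not at E50. Of the cells with at least 3 UMIs of each, 33 of 35 in E60_3, 3 of 3 in E70_1, 4 of 4 in E70_2 and 8 of 9 in E70_3 were RELN/CALB2 cells. In E50_1 this was so for 4 of 31, and 17 of the others had at least 10 UMIs of CALB1, which no RELN/CALB2 cell held above 2 UMIs. None was found in E60_1, E60_2 or E70_nc.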

How the data were processed

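Droplet libraries (10X Genomics v2) of pig MEC were aligned by the authors with Cell Ranger (version 2.20 in the submitters' processing notes) to a pre-mRNA annotation of Sscrofa 11.1, and the deposited values are raw counts of UMIs per gene and cell, in 22452 genes. Of 251 genes in the lists 244 were found, some through RefSeq names given to 987 Ensembl IDs. The depositors' cells were all kept. The RELN/CALB2 cells and the gene lists were chosen with earlier results of these data known.

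Counts were summed per library and class of cells and tested with edgeR 4.0.16 (R 4.3.3, quasi-likelihood, TMM, its filter on low counts, library as a block), with adjusted p by Benjamini-Hochberg and a threshold of 0.05. RELN and CALB2 stayed in the library sizes but were not tested. The design asked for 10 cells of each class per library, and 3 were used after the numbers had been seen. Classes of 1 library come from the same cell suspension. Their deviations from the class means correlated between classes by 0.628 to 0.746 over 4408 genes for other neuron-rich cells, by 0.069 to 0.359 for RELN-only cells and by 0.41 for CALB2-only cells. Nothing in the labels says that libraries of 1 stage came from separate litters. With library as a block, the p-values of the fits set the difference between classes against its variation over these libraries. They do not measure the spread between animals.

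Named genes were the label markers, the listed genes, and the 12 largest changes in each direction past the threshold, of the same sign in every library and, for genes that rose, found in at least 25% of the RELN/CALB2 cells (for genes that fell, of the other class). For shares of cells with a gene, cells were thinned to 10000 UMIs. All 54 RELN/CALB2 cells, 2291 other neuron-rich cells, 54 RELN-only, 46 CALB2-only and 216 microglia-like cells were deep enough. Microglia-like cells had at least 20 UMIs of 8 microglia genes and under 20 of the pan-neuronal genes per 10000. Shares were compared over libraries with an exact permutation test (scipy 1.17.1). Doublets were called with Scrublet in scanpy 1.11.5. The fits were tested on simulated data. The alternatives were DESeq2 1.42.0 and its size factors, no filter, no block, other rules for the cells, neurons of like depth, a stricter neuron limit, no doublets and each library left out. A few listed genes are not reported here.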

Additional observations from a re-analysis of the deposited data

Results flagged for a closer look

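In the adult whole cells, which entered no comparison, 2 of 737 cells met the same rule (0.271%, exact 95% interval 0.0329% to 0.977%). None of 2552 adult nuclei did, which allows a share of up to 0.118% for nuclei that meet the rule. The adult nuclei held a median of only 690 UMIs, against at least 11044 in every fetal RELN/CALB2 cell. This limit is thus none on how common the cell type was. The first of the 2 whole cells held 285 UMIs of RELN and 487 of CALB2 among 60089 in all, with 44 UMIs of LHX1, 92 of NDNF and 8 of TP73. These last 3 values drew attention because they lie outside the main measurement, in data with no comparison, and above the 3 UMIs that a count of 0 allows. The cell also had 10 UMIs of CXCR4, 3 of EBF3, 83 of LGALS1 and 10 of GMPR, and 0 of GAD1 and GAD2. Its barcode was not found in a fetal library. It held 47 UMIs of MBP, a gene of myelin.

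The second adult cell was unlike it in LHX1, NDNF, TP73 and the GAD genes. It had 103878 UMIs, with 49 of RELN and 57 of CALB2, but 1 each of LHX1, NDNF and TP73, and 25 of GAD1 and 17 of GAD2. LGALS1, with 208 UMIs, and MBP, with 87, were higher in it than in the first cell. It had 2 UMIs each of CXCR4 and EBF3 and 1 of GMPR. With 1 adult library of whole cells, the adult stage has no replicate.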

How the results depend on the processing

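No named gene called in a fit reversed its direction under an alternative. Against other neuron-rich cells, 3057 calls became 566 with no replicate block, 1466 with the rule set per 10000 UMIs, 1011 in neurons of like depth, and between 1709 (without E60_3) and 3234 when a library was left out. The like-depth, per 10000 and left-out fits used fewer cells or libraries, and otherwise the cause was not tested. Against RELN-only cells, 108 calls became 254 with the rule per 10000 UMIs, and between 5 (without E60_3) and 201 (without E70_3) with a library left out. Against CALB2-only cells, 284 calls became 142 with DESeq2 size factors, 82 with the DESeq2 Wald test and 0 with no replicate block. For the share of cells, pairing same-numbered libraries as a replicate block gave the same difference of 0.0964 percentage points (exact permutation test, p = 1, smallest possible 0.25), and leaving out a library gave -0.108 to 0.504 points. Fits with at least 20 cells per library, the stricter rule for RELN-only and CALB2-only cells, neurons of like depth for RELN-only cells, the rule per 10000 UMIs or a left-out library for CALB2-only cells, and all fits by stage could not be made, with too few libraries left. The number of RELN/CALB2 cells per library, 3 to 33, limits every level given for a single library.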
